A study of Caenorhabditis elegans with 48 samples.

Results

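The transcriptional response of young adult Caenorhabditis elegans of strain CA1200 to an acute heat shock on solvent plates was taken from 6 of the 48 polyA-selected, directional RNA-seq libraries of the series: the 3 heat-shocked and the 3 unheated ethanol libraries of this strain. CA1200 carries the transgene ieSi57 on chromosome II, in which the eft-3 promoter drives TIR1 fused to mRuby with the unc-54 3' UTR, beside a Cbr-unc-119(+) marker, in an unc-119(ed3) III background. TIR1, a plant F-box protein that lets auxin direct tagged proteins to the proteasome, is thus made in somatic cells. The HSF-1 of CA1200 has no tag, and no tagged target is listed for the strain. Worms of both groups grew for 51 h and spent 2 h on ethanol plates; one group was then heat shocked at 34 °C for 30 min in a water bath, and the other stayed at 20 °C. The same heat shock on ethanol was used for JTL611, with the same somatic TIR1 and degron::GFP-tagged HSF-1, for JTL621, with germline TIR1 and tagged HSF-1, and for CA1199, with germline TIR1 and untagged HSF-1. All 12450 genes listed for CA1200 belong to the response, and 11878 with a mean of at least 1 CPM (counts-per-million) over the strain's 12 libraries were tested; the other 572 were too low.

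Cells answer a rise in temperature by making chaperones, proteins that hold or refold unfolding polypeptides. HSF-1, the heat shock transcription factor of the worm, binds heat shock elements in the promoters of chaperone genes, among them the Hsp70 genes and the small heat shock protein genes of the hsp-16 class, which are almost silent in unstressed worms and serve as standard readouts of the response. Constitutive chaperones such as HSP-90 and HSP-1 fold proteins in unstressed cells too.

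The heat-shocked libraries held 16345788 to 17233690 reads on the listed genes and the unheated ones 14392009 to 17541208, so that 3 reads, the limit a count of 0 allows, were 0.161 to 0.203 CPM; this covers counting error only. Reads of rRNA genes made up 10.37% to 12.297% of the heat-shocked and 6.51% to 11.9% of the unheated libraries. The labels number the replicates without saying whether they were separate cultures, so p-values measure the spread between these libraries, which may be technical. Fold changes were computed from log2(CPM + 1), so those of weakly expressed genes come out too small, and a gene is called at an adjusted p of 0.05 (limma, Benjamini-Hochberg over all genes tested).

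After heat shock 681 genes were higher (5.73% of those tested) and 892 were lower (7.51%), and the median log2 fold change over all tested genes was -0.01. In 3760 of the tested genes (31.7%), called or not, the heat-shocked and unheated libraries did not overlap. A lack of overlap alone therefore does not set a gene apart. The rises reached much further than the falls: among the called genes, 141 rose by more than 1 on the log2 scale, 51 by more than 2 and 10 by more than 5, whereas 93 fell by more than 1, 2 by more than 2 and 1 by more than 3. The median change was 0.45 among called rises and -0.62 among called falls. The test did not pair same-numbered libraries. With a block for the replicate number, 910 genes were called higher and 1196 lower. The division into rises and falls depended on the scaling of the libraries: with plain read totals in place of the authors' scaling factors, which were 0.958 to 0.988 in heat-shocked and 1.03 to 1.07 in unheated libraries, 316 genes were called higher and 1152 lower, so that rises made up 21.5% of the calls in place of 43.3%.

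**Figure D1:**
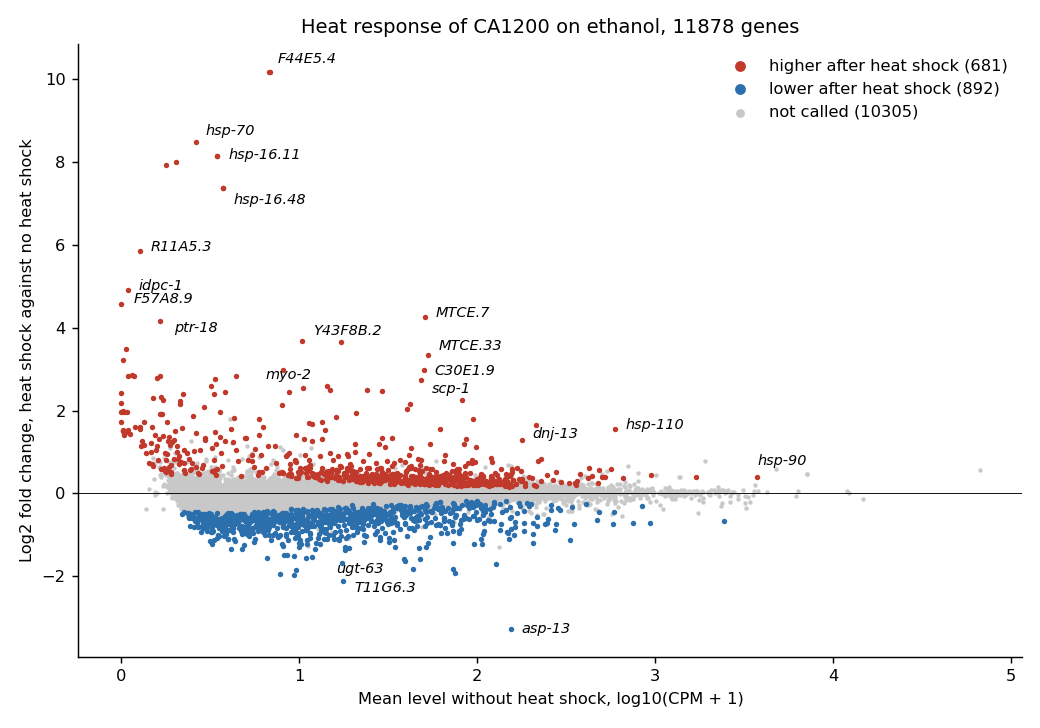
Log2 fold change of each of the 11878 tested genes (vertical) against its mean level in the 3 unheated libraries, as log10(CPM + 1) (horizontal); red points were called higher after heat shock (681), blue points lower (892) and grey points not called. The largest rises, up to 10.17, lie among genes of under 10 CPM in unheated worms, and the largest fall is asp-13 at -3.27.

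All 9 inducible heat shock protein genes rose, with a median log2 fold change of 8.15, and did so in each of the 16 alternative settings. The list holds Hsp70 and hsp-16 genes and was drawn up with results of these data known. F44E5.4, an inducible Hsp70 gene on the minus strand of chromosome II (11757107 to 11759311; WBcel235), had 6606, 6665 and 6277 CPM in heat-shocked worms, against 4.12, 1.90 and 11.3 CPM in unheated worms. Its neighbour F44E5.5, on the plus strand at 11759662 to 11761861, had 6642, 6684 and 6300.4 CPM in heat-shocked worms, against 4.18, 1.97 and 11.4 CPM in unheated worms. The unheated libraries differed among themselves several-fold, and even the highest lay far under every heat-shocked one. The log2 fold changes were 10.17 ± 0.37 and 10.15 ± 0.37 (SE, n = 3 each; limma adjusted p = 3.2e-10 for both). The 2 genes are near-identical copies whose CPM differed by only 0.283% to 0.545% within heat-shocked libraries, so how the authors' counting divided reads between them is uncertain.

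hsp-70, the inducible Hsp70 gene on chromosome I (9320325 to 9322519), had 933, 784 and 673 CPM in heat-shocked worms, against 0.642, 0.339 and 3.95 CPM in unheated worms. Its mean was 485-fold higher after heat shock, with a log2 fold change of 8.48 ± 0.35 (SE; limma adjusted p = 1.6e-09). The constitutive Hsp70 gene hsp-1, by contrast, had 4589, 3742 and 4245 CPM in heat-shocked worms, against 3588, 3616 and 3671 CPM in unheated worms, a difference of 0.20 that did not pass the test (limma adjusted p = 0.26).

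The hsp-16 genes encode small heat shock proteins that hold unfolding proteins before the Hsp70 system acts. On chromosome V, hsp-16.1 (9087293 to 9087782) had 1002, 895 and 906 CPM in heat-shocked worms, against 2.998, 1.08 and 3.30 CPM in unheated worms (log2 fold change 8.15). hsp-16.41 (V, 1805178 to 1805875) had 555, 457 and 425 CPM in heat-shocked worms, against 0.589, 0.271 and 2.20 CPM in unheated worms (8.00). hsp-16.2, the gene whose promoter is often used in heat shock reporters (V, 1804334 to 1804957), had 482, 385 and 376 CPM in heat-shocked worms, against 0.696, 0.203 and 1.42 CPM in unheated worms (7.92). Replicate 1 was the highest heat-shocked library for each of these 3 genes, and replicate 2 the lowest unheated one. hsp-16.48 had 639, 532 and 548 CPM in heat-shocked worms, against 3.69, 0.949 and 3.50 CPM in unheated worms, with a log2 fold change of 7.37. hsp-16.11 and hsp-16.49 are copies of hsp-16.1 and hsp-16.48; within heat-shocked libraries the pairs differed by 0.0479% to 0.0604% and by 0.0947% to 0.203%, and reads cannot be assigned to one member with certainty.

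Summed over the 9 genes, the inducible heat shock proteins reached 18501, 17829 and 16961 CPM in heat-shocked worms, against 23.6, 8.74 and 43.8 CPM in unheated worms. The means were 17764 ± 772 CPM in heat-shocked and 25.4 ± 17.6 CPM in unheated worms (SD, n = 3 each), a ratio of 699.5, and the exact two-sided permutation test gave p = 0.1, the smallest that 3 against 3 libraries allow. These genes took 1.65% to 1.77% of the reads of heat-shocked and 0.000896% to 0.00457% of those of unheated libraries. With 1 member of each pair of copies the means were 9713 CPM in heat-shocked and 14.4 CPM in unheated worms.

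**Figure D2:**
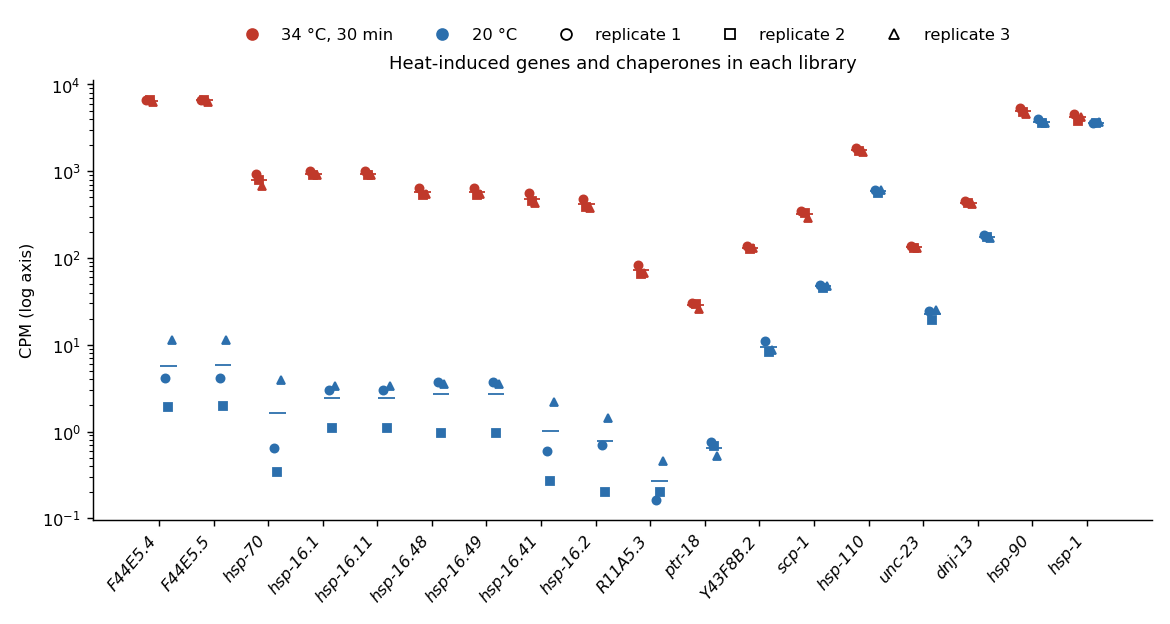
CPM on a log axis of 18 heat-induced or chaperone genes in the 3 heat-shocked libraries (red, left of each pair) and the 3 unheated libraries (blue, right); marker shapes give the replicate and bars the mean. The 9 inducible heat shock protein genes lie at 376 CPM or more after heat shock and at 11.4 CPM or less without it, while hsp-90 and hsp-1 differ by 0.39 and 0.20 on the log2 scale.

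Among cytosolic chaperones and co-chaperones 6 of 17 genes rose (35.3%, beside 5.73% of all genes) and none fell, with a median of 0.11. hsp-110, a nucleotide exchange factor for Hsp70, had 1834, 1703 and 1674 CPM in heat-shocked worms, against 611, 562 and 606 CPM in unheated worms (1.55 ± 0.07, SE; limma adjusted p = 2.9e-09). unc-23, a BAG-domain co-chaperone of Hsp70 first known from muscle attachment mutants, had 138, 129 and 132 CPM in heat-shocked worms, against 24.6, 19.05 and 25.1 CPM in unheated worms (2.497 ± 0.11). dnj-13, a DnaJ protein that stimulates Hsp70 ATPase activity, had 455, 431 and 419 CPM in heat-shocked worms, against 186, 175 and 169 CPM in unheated worms (1.296 ± 0.06). In these 3 genes the groups were several times their own spread apart. The other 3 calls were of modest size: hsp-90 (0.39), the HSP-90 co-chaperone phosphatase pph-5 (0.35) and the myosin chaperone unc-45 (0.28). All 3 were lost with read-total scaling (adjusted p = 0.11, 0.136 and 0.296), hsp-90 and unc-45 also with quantile normalisation (0.455 and 0.0699), and all 3 without heat-shocked replicate 1 (0.0901, 0.0794 and 0.0681) or without heat-shocked replicate 2 (0.0542, 0.0738 and 0.0963), which left 3 calls in the list each time.

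The rise stayed narrow among other chaperone groups, beside 5.73% of all genes called higher and 7.51% called lower. None of 14 tested CCT chaperonin and prefoldin subunits passed the test (median 0.08), nor any of 13 mitochondrial chaperones and proteases (median 0.03); hsp-6, the mitochondrial Hsp70, was at 971 ± 17.3 CPM in heat-shocked and 795 ± 66.8 CPM in unheated worms (SD, n = 3 each; 0.29, adjusted p = 0.062) and passed with a replicate block (adjusted p = 0.022). Of 20 endoplasmic reticulum stress genes 1 was called higher and 1 lower. hsp-4, the worm BiP that reports the unfolded protein response, was the higher one (0.37), a call lost with read-total scaling (adjusted p = 0.158), without heat-shocked replicate 1 (0.0844), and without unheated replicate 2 (0.0822) or 3 (0.0635); its partner BiP gene hsp-3 was at -0.11 and not called. Of 9 tested small heat shock proteins outside the hsp-16 class 2 were called higher, among them hsp-12.2 (8.06 ± 1.11 CPM in heat-shocked and 4.15 ± 0.392 CPM in unheated worms, SD, n = 3 each; 0.81). In the ubiquitin and CDC-48 group 2 of 14 genes rose: aip-1, an arsenite-inducible regulator of the proteasome, to 63.1 CPM in heat-shocked worms against 27.02 CPM in unheated worms (1.19), and sqst-1, the p62 autophagy receptor, to 71.9 CPM in heat-shocked worms against 28.1 CPM in unheated worms (1.33). Proteasome subunits had a median of 0.01, with 1 of 32 called.

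The gene for HSF-1 itself had 45.6, 58.1 and 51.7 CPM in heat-shocked worms, against 40.8, 41.7 and 44.2 CPM in unheated worms; every heat-shocked library was above every unheated one, but the log2 fold change of 0.28 ± 0.13 (SE) did not pass the test (limma adjusted p = 0.17; 0.039 with a replicate block). Its negative regulators in the worm, hsb-1 and ddl-1, were at 0.04 and 0.04 and not called, whereas ddl-2, which forms a complex with DDL-1 and HSF-1, rose to 23.1, 21.2 and 21.5 CPM in heat-shocked worms, against 14.1, 13.6 and 15.1 CPM in unheated worms (0.58 ± 0.08, SE; limma adjusted p = 3.5e-04). Across 25 stress transcription regulators 4 rose (16%) and 1 fell (4%), beside 5.73% and 7.51% of all genes. With a replicate block 7 rose and 3 fell, and with read-total scaling 2 rose and 5 fell. The largest rise in the list was that of cebp-1 (0.73), a call lost in 4 of the 16 alternatives. The bZIP genes zip-10 and atf-2 are not in the list and were singled out after their values were seen. zip-10 rose to 12.9 ± 1.102 CPM in heat-shocked worms against 2.602 ± 0.544 CPM in unheated worms (1.96, SD, n = 3 each). atf-2 rose to 4.61 ± 1.0003 CPM in heat-shocked worms against 1.003 ± 0.485 CPM in unheated worms (1.499, SD, n = 3 each).

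Outside the chaperones, the largest rises were in genes that were nearly silent at 20 °C. R11A5.3 (I, 7862529 to 7863569) had 83.2, 65.0 and 67.1 CPM in heat-shocked worms, against 0.161, 0.203 and 0.453 CPM in unheated worms, a 264-fold higher mean and a log2 fold change of 5.84 ± 0.18 (SE; limma adjusted p = 6e-11). idpc-1 (III, 11427206 to 11428414) had 30.3, 30.5 and 33.9 CPM in heat-shocked worms, against 0.214, 0 and 0.0647 CPM in unheated worms (4.90). F57A8.9, a non-coding RNA gene (V, 10048167 to 10048388), had 26.3, 23.9 and 18.2 CPM in heat-shocked worms and no read in any unheated library, so that its mean was at least 371-fold higher, taking 3 reads over the 3 unheated libraries as the floor. In all 3 genes the unheated level lay within a few reads of 0. F57A8.9 was 1 of 5 genes called higher that had no read in the unheated libraries; another, nhr-241 of the nuclear hormone receptor family, was at least 61.8-fold higher.

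Other genes rose as well, from varied levels at 20 °C. Y43F8B.2 (V, 19519938 to 19533110) had 136, 126 and 132 CPM in heat-shocked worms, against 11.1, 8.20 and 8.74 CPM in unheated worms (3.68 ± 0.11, SE). scp-1, which encodes the worm SREBP cleavage-activating protein, had 345, 329.6 and 289 CPM in heat-shocked worms, against 48.6, 45.4 and 48.17 CPM in unheated worms (2.73 ± 0.09). ptr-18, a patched-related membrane protein, had 29.9, 29.5 and 25.9 CPM in heat-shocked worms, against 0.749, 0.678 and 0.518 CPM in unheated worms (4.16 ± 0.12). Each had tight replicates and no overlap between groups, but the largest rises and falls were named among genes without overlap, so this is no added support. nurf-1, the large subunit of the nucleosome remodelling factor, rose to 659 ± 8.15 CPM in heat-shocked worms against 212 ± 27.8 CPM in unheated worms, and tent-5, a non-canonical poly(A) polymerase, to 188 ± 19.1 CPM in heat-shocked worms against 41.1 ± 2.75 CPM in unheated worms (SD, n = 3 each). scp-1, ptr-18, nurf-1 and tent-5, with R11A5.3, R107.5, ttll-12, T27E4.1 and Y94H6A.10, form a list of genes lowered by loss of somatic HSF-1 that was picked on libraries of this series, so its count of 9 of 9 higher here (median 2.16) is a description only.

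Several of the strongest rises had a neighbour on the same strand that also rose. Of the 51 genes called higher by more than 2 on the log2 scale, 15 had a tested gene starting within 3000 bp downstream on the same strand, and 8 of these 15 neighbours were called higher, with none lower, beside 5.73% higher among all genes; leaving out neighbours that themselves passed 2, it was 4 of 11. Upstream it was 9 of 17, or 5 of 13, with 1 neighbour lower. srt-42, a chemoreceptor-family gene 1585 bp downstream of hsp-16.41, had 9.75, 7.18 and 5.33 CPM in heat-shocked worms, against 0.107, 0.136 and 0.194 CPM in unheated worms (2.84). T27E4.1, 1741 bp downstream of hsp-16.11, had 7.63, 4.77 and 4.53 CPM in heat-shocked worms, against 1.55, 0.813 and 1.23 CPM in unheated worms (1.58). Both neighbours stayed at under 10 CPM and neither overlapped between groups. Between scp-1 and ttll-12, a tubulin ligase-like gene, lie 101 bp, and ttll-12 had 375, 326 and 288 CPM in heat-shocked worms, against 92.3, 94.7 and 94.7 CPM in unheated worms (1.79). On the other side of scp-1, eif-3.F lies closer still, 44 bp upstream. It was at 119.6 CPM in heat-shocked and 117.7 CPM in unheated worms and was not called (0.02). Whether the downstream reads come from separate transcripts was not tested.

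The 2 ribosomal RNA genes of the mitochondrial genome rose, and none of its protein genes did. MTCE.7 (MtDNA, 898 to 1593) had 856, 989.6 and 974 CPM in heat-shocked worms, against 37.95, 63.3 and 47.6 CPM in unheated worms, an 18.9-fold higher mean (4.24 ± 0.16, SE; limma adjusted p = 4.1e-10). MTCE.33 (MtDNA, 10403 to 11354) had 479.7, 537 and 504 CPM in heat-shocked worms, against 37.5, 77.7 and 40.8 CPM in unheated worms, a 9.75-fold higher mean (3.34 ± 0.20, SE). Neither gene's groups came near each other. Of the 12 mitochondrial protein genes none was called higher and 1 lower, beside 5.73% higher and 7.51% lower among all genes. A count of 1 in 12 is near that share and does not set the group apart. The lower gene was ND4, a complex I subunit. It had 113, 171 and 165 CPM in heat-shocked worms, against 243, 331 and 244 CPM in unheated worms (-0.87 ± 0.15, SE, limma adjusted p = 0.002). COX1, a complex IV subunit, was at 2017 ± 131 CPM in heat-shocked and 2379 ± 353 CPM in unheated worms (SD, n = 3 each) and was not called. ND5, another complex I subunit, had 189, 279 and 275 CPM in heat-shocked worms, against 291, 416 and 285 CPM in unheated worms; the groups did not overlap, and -0.41 did not pass the test (limma adjusted p = 0.12). Since the libraries were selected for polyA tails, the level of an rRNA here counts the tailed or carried-over molecules only. In the libraries of the other strains, which share none with CA1200, the heat response of MTCE.7 on ethanol was 4.03 in CA1199, 4.61 in JTL611 and 3.63 in JTL621, and that of MTCE.33 was 3.26, 3.66 and 2.71 in the same order.

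**Figure D3:**
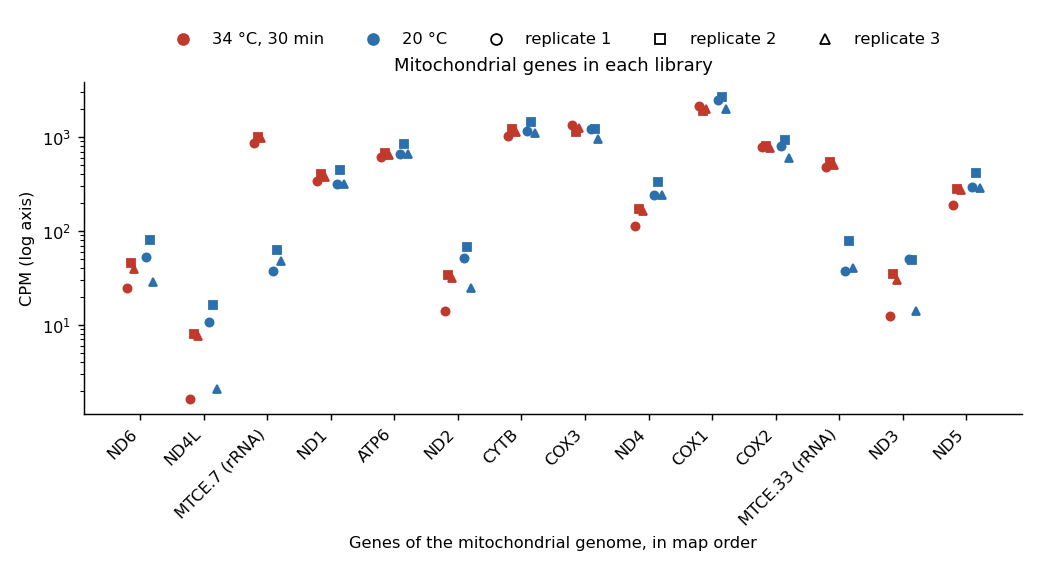
CPM on a log axis of the 14 genes of the mitochondrial genome, in map order, in the 3 heat-shocked libraries (red, left) and the 3 unheated libraries (blue, right); marker shapes give the replicate. The rRNA genes MTCE.7 and MTCE.33 lie at 479.7 to 989.6 CPM after heat shock and at 37.5 to 77.7 CPM without it, while ND4 and, without passing the test, ND5 lie lower in every heat-shocked library and the other protein genes overlap between the groups.

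Non-coding RNA genes were among the rises: 4 of 19 tested lincRNA genes (21.1%) and 8 of 55 other ncRNA genes (14.5%) were called higher, beside 5.73% of all genes. C30E1.9, an ncRNA gene on chromosome X (16929914 to 16944683), had 385, 416 and 371 CPM in heat-shocked worms, against 49.8, 37.9 and 59.9 CPM in unheated worms (2.99 ± 0.15, SE). linc-6 had 11.6, 9.53 and 10.97 CPM in heat-shocked worms, against 0.749, 0.746 and 0.453 CPM in unheated worms (2.83). tts-1, a ribosome-associated long RNA known from long-lived worms, had 52.8, 65.5 and 40.8 CPM in heat-shocked worms, against 5.83, 13.3 and 2.14 CPM in unheated worms (2.98 ± 0.54, SE); its unheated libraries varied several-fold and still lay under every heat-shocked one. Some of these genes overlap protein genes, and the strand setting of the authors' counting is not stated, so their reads cannot be separated from an overlapping partner's with certainty.

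Genes for the proteins that package and read chromosomes changed in a few members, beside 5.73% higher and 7.51% lower among all genes. Among 43 tested histone genes 5 rose: his-41 had 81.5, 74.6 and 79.1 CPM in heat-shocked worms, against 21.3, 18.4 and 19.6 CPM in unheated worms (1.94), his-35, beside it on chromosome V, was at 77.6 ± 3.28 CPM in heat-shocked and 40.4 ± 0.914 CPM in unheated worms (0.92), and the linker histone gene his-24 at 13.4 ± 0.712 CPM in heat-shocked and 5.67 ± 1.78 CPM in unheated worms (1.15; SD, n = 3 each). The histone median was 0.05, and with a minimum of 5 CPM, which tests fewer genes, 3 rose. In the nucleolus and rRNA synthesis list 5 of 20 genes rose (25%) and 1 fell (5%), or 3 and 1 with read-total scaling. Among the rises were rpoa-1, the largest subunit of RNA polymerase I (115 CPM in heat-shocked and 75.9 CPM in unheated worms, 0.60), and pro-3 (42.6 CPM in heat-shocked and 27.3 CPM in unheated worms, 0.62). None of 80 cytosolic ribosomal protein genes (median 0.04) and none of 26 translation factor genes (median 0.04) passed the test. Singled out after their values were seen, the kinase gene gcn-2, whose product phosphorylates eIF2 alpha, was at 62.7 ± 1.902 CPM in heat-shocked and 35.98 ± 6.72 CPM in unheated worms (0.80), and efk-1, the elongation factor 2 kinase, at 134 ± 6.17 CPM in heat-shocked and 83.9 ± 2.79 CPM in unheated worms (0.67; SD, n = 3 each).

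A few metabolic genes that rose were singled out after their values were seen and stand for no group. Of 19 glycolysis genes none rose and 1 fell (5.26%), beside 5.73% higher and 7.51% lower among all genes. That fall was called again in 1 of the 6 fits that left out a library. adh-1, an alcohol dehydrogenase, had 146, 184 and 105 CPM in heat-shocked worms, against 39.4, 33.7 and 11.1 CPM in unheated worms (2.47 ± 0.45, SE; limma adjusted p = 0.0026), both groups having spent 2 h on ethanol plates. icl-1, the enzyme of the glyoxylate cycle, had 271, 212 and 171 CPM in heat-shocked worms, against 99.3, 74.01 and 83.6 CPM in unheated worms (1.32). gyg-1, the glycogenin that primes glycogen, had 83.7, 81.4 and 80.9 CPM in heat-shocked worms, against 31.6, 28.3 and 36.6 CPM in unheated worms (1.33). adh-1 varied most between replicates, and none of the 3 genes overlapped between groups, as held for 31.7% of all tested genes. tatn-1, the tyrosine aminotransferase, was at 189 ± 21.6 CPM in heat-shocked and 82.8 ± 19.3 CPM in unheated worms (1.201; SD, n = 3 each).

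Muscle genes were called higher, by most in the pharynx, the feeding organ, beside 5.73% of all genes called higher. Pharyngeal myosin heavy chain genes moved together: myo-2 had 69.4, 66.7 and 128 CPM in heat-shocked worms, against 14.3, 10.9 and 14.8 CPM in unheated worms (2.58 ± 0.36, SE), and myo-1 had 72.3, 67.8 and 115 CPM in heat-shocked worms, against 15.95, 12.81 and 13.01 CPM in unheated worms (2.49 ± 0.32). In both, heat-shocked replicate 3 was the highest by far, and the lowest heat-shocked library stood well above the highest unheated one. Of 11 pharynx markers 7 were tested and 5 were called higher, with a median of 1.09; 4 (ceh-22, phat-1, phat-2 and phat-5) are not in the table, and pha-4, the organ's selector gene, was at 0.14 and not called. Without heat-shocked replicate 3, or without unheated replicate 2, 3 calls were left, as with a minimum of 5 CPM. The summed pharynx markers came to 167 to 294 CPM in heat-shocked and 41.2 to 53.2 CPM in unheated libraries. In whole worms, a change in the number of cells of a type and a change in RNA per cell cannot be told apart. This limit holds for every tissue marker list here, rising or falling.

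Of 15 body wall muscle markers 8 were called higher (53.3%, beside 5.73% of all genes), with a median of 0.52. The thin-filament protein gene unc-87 had 374, 382 and 425 CPM in heat-shocked worms, against 275, 264 and 285 CPM in unheated worms (0.52 ± 0.08, SE), and the myosin light chain gene mlc-3 had 517, 502 and 557 CPM in heat-shocked worms, against 384, 379 and 370.2 CPM in unheated worms (0.47 ± 0.09). Their groups did not overlap, as held for 31.7% of all tested genes. The body wall myosin gene unc-54 had 2805, 2559.9 and 4040.5 CPM in heat-shocked worms, against 1895, 1125 and 2673 CPM in unheated worms; the groups overlap and 0.78 was not called (limma adjusted p = 0.12), although it passed with a replicate block (0.0039) and without unheated replicate 3 (0.041). Over the list a replicate block gave 13 calls, and leaving out heat-shocked replicate 1 or 3 gave 5. The summed body wall markers were 10280 to 12977 CPM in heat-shocked and 6559 to 9016 CPM in unheated libraries.

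Intestinal genes were called lower in part, beside 7.51% of all genes called lower. Of 12 intestine markers 6 were called lower and none higher, with a median of -0.45. pept-1, the main dipeptide transporter of the gut, had 65.6, 74.7 and 74.2 CPM in heat-shocked worms, against 117, 139 and 142 CPM in unheated worms (-0.88 ± 0.10, SE; limma adjusted p = 5.9e-05). mtl-2, an intestinal metallothionein, had 26.3, 20.2 and 29.9 CPM in heat-shocked worms, against 58.3, 47.6 and 53.5 CPM in unheated worms (-1.05 ± 0.16). act-5, the microvillar actin, had 366, 294 and 379 CPM in heat-shocked worms, against 574, 489.8 and 665 CPM in unheated worms (-0.73 ± 0.15). All 3 were lower in every heat-shocked library. elt-2, the GATA factor that defines intestinal identity, was at 0.09, and the intermediate filament gene ifb-2 at 0.13; neither was called. The summed markers were 2266 to 2867 CPM in heat-shocked and 3614 to 4281 CPM in unheated libraries.

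Members of the gut enzyme, defence protein and transporter families were called lower too, beside 7.51% of all genes. The steepest fall of all was that of the aspartic protease gene asp-13 (V, 8641602 to 8643193), which had 14.7, 14.7 and 14.8 CPM in heat-shocked worms, against 117, 159 and 184 CPM in unheated worms (-3.27 ± 0.14, SE; limma adjusted p = 1.6e-09); its heat-shocked libraries were nearly equal and its mean was 0.0962 of the unheated one. Of 11 tested aspartic protease genes 5 fell (median -0.43), among them asp-6, at 560.4 ± 44.7 CPM in heat-shocked and 928 ± 91.9 CPM in unheated worms; without heat-shocked replicate 2 it was 2, and without heat-shocked replicate 3 or unheated replicate 2 it was 3. The lysozyme gene lys-2 was at 39.9 ± 7.22 CPM in heat-shocked and 94.5 ± 17.9 CPM in unheated worms (-1.22; SD, n = 3 each), with 5 of 24 lysozyme and saposin-like genes lower (9 with a replicate block). Among solute carriers and peptide transporters 8 of 24 fell (median -0.23), with folt-1, a folate transporter, at 2.05 CPM in heat-shocked and 7.55 CPM in unheated worms (-1.48) and pept-2 at 13.2 CPM in heat-shocked and 30.8 CPM in unheated worms (-1.16). Of 71 C-type lectin genes 14 fell and none rose (median -0.31); a replicate block gave 24, and leaving out heat-shocked replicate 3 gave 7 or unheated replicate 2 gave 8.

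Calls among enzymes of detoxification and lipid metabolism are set beside 5.73% higher and 7.51% lower among all genes. Of 48 tested UDP-glucuronosyltransferase genes, which conjugate sugars to small molecules, 19 fell and 1 rose (median -0.46); without heat-shocked replicate 2 it was 10 falls, without heat-shocked replicate 3 it was 12, and without unheated replicate 3 it was 11. ugt-63 had 11.99, 12.01 and 11.3 CPM in heat-shocked worms, against 26.3, 44.4 and 43.1 CPM in unheated worms (-1.57 ± 0.18, SE), and ugt-47 had 34.5, 33.8 and 32.9 CPM in heat-shocked worms, against 69.7, 67.9 and 61.6 CPM in unheated worms (-0.96 ± 0.08). The groups did not overlap in either gene. The exception was ugt-14, at 2.08 CPM in heat-shocked and 0.121 CPM in unheated worms (1.43). Of 39 cytochrome P450 genes 8 fell and none rose (median -0.24); the count was 4 without heat-shocked replicate 2, and 5 without heat-shocked replicate 3 or without unheated replicate 1; it was also 4 with a minimum of 5 CPM, and 5 with quantile normalisation or with the 6 libraries alone. Of 28 glutathione S-transferase genes 2 fell (7.14%) and 1 rose (3.57%), neither above the share of all genes (median -0.22). With a replicate block it was 3 and 3, and without the filter on low values 4 rose. Of 20 genes listed under fatty acid desaturation and synthesis 4 fell and 1 rose (median -0.14), or 6 and 2 with a replicate block. The rise was that of acs-2 (1.26), and its place in the list does not make it a rise in fatty acid synthesis. The call was lost without heat-shocked replicate 2 (limma adjusted p = 0.0651) or unheated replicate 1 (0.0512). elo-5 and elo-6, the elongases that make branched-chain fatty acids, were at 96.5 ± 13.01 and 103 ± 5.13 CPM in heat-shocked worms, against 181 ± 26.9 and 206 ± 36.1 CPM in unheated worms (-0.90 and -0.98; SD, n = 3 each).

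Some neuron markers were lower as well, beside 7.51% of all genes called lower. Of 21 neuron markers 7 fell and none rose (median -0.31), with 4 left without heat-shocked replicate 2, heat-shocked replicate 3 or unheated replicate 3. rgef-1, a pan-neuronal exchange factor, had 0.726, 0.557 and 0.744 CPM in heat-shocked worms, against 1.77, 2.71 and 2.20 CPM in unheated worms (-0.94 ± 0.14, SE), and ida-1, a dense core vesicle protein, had 12.59, 11.2 and 9.98 CPM in heat-shocked worms, against 20.2, 18.98 and 23.4 CPM in unheated worms (-0.83 ± 0.14). Neither overlapped between groups. Neuropeptide and insulin-like genes followed, with 20 of 72 lower and 1 higher (median -0.30): the FMRFamide-like gene flp-7 was at 2.19 ± 0.397 CPM in heat-shocked and 4.63 ± 0.705 CPM in unheated worms, and ins-6 at 0.757 ± 0.349 CPM in heat-shocked and 2.49 ± 0.650 CPM in unheated worms (SD, n = 3 each). The neuropeptide falls numbered 9 without heat-shocked replicate 2, 13 without heat-shocked replicate 3 and 12 without unheated replicate 2 or with quantile normalisation; with a minimum of 5 CPM 4 neuropeptide genes and 3 neuron markers were called lower. Summed neuron markers were 297 to 318 CPM in heat-shocked and 356 to 372 CPM in unheated libraries.

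**Figure D4:**
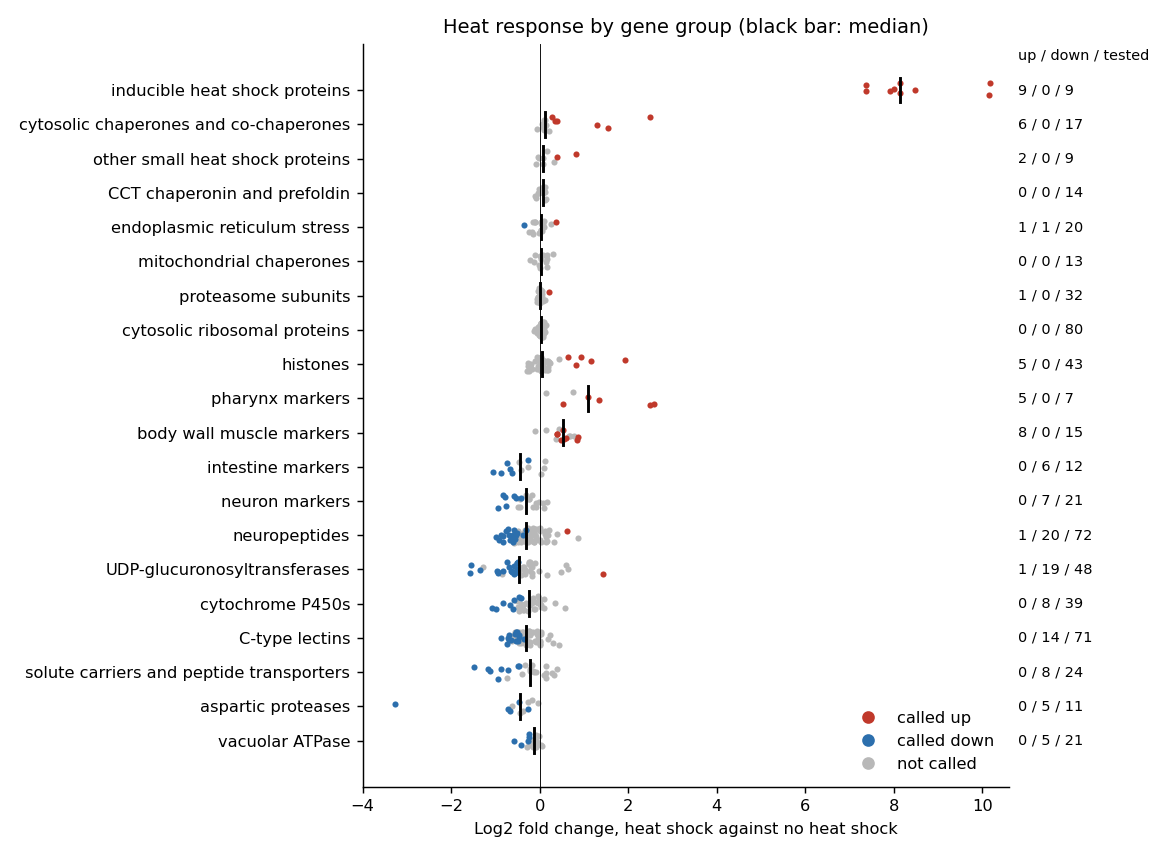
Log2 fold change of every tested gene in 20 of the gene groups (points; red called higher after heat shock, blue called lower, grey not called), with the group median as a black bar and the counts of higher, lower and tested genes at the right. The inducible heat shock proteins stand apart at 7.37 to 10.17, pharynx and body wall muscle markers lie mostly to the right of 0, and intestine, neuron, UDP-glucuronosyltransferase and C-type lectin genes mostly to the left.

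Germline genes, which make up much of the RNA of a young adult hermaphrodite, were for the most part not called. Of 25 meiosis genes 3 rose and none fell (12%, beside 5.73% of all genes; median 0.06), with 1 left without heat-shocked replicate 1 and none with read-total scaling. Of 22 germ granule and small RNA genes 2 rose (9.09%) and 1 fell (4.55%), beside 5.73% and 7.51% of all genes (median 0.05). There was 1 rise and no fall without heat-shocked replicate 2, heat-shocked replicate 3 or unheated replicate 1. None of 18 oogenesis and eggshell genes (median 0.03), none of 29 major sperm protein genes (median -0.17) and none of 6 vitellogenin genes (median -0.17) passed the test. The vitellogenins, the yolk proteins made in the adult intestine, summed to 30238 to 46545 CPM in heat-shocked and 31922 to 48965 CPM in unheated libraries, so these adult-stage transcripts were abundant in all 6 libraries. Of 24 tested spermatogenesis genes, 2 rose: spe-36 had 8.48, 7.24 and 6.45 CPM in heat-shocked worms, against 0.856, 0.407 and 0.777 CPM in unheated worms (2.32), and spe-49, downstream of the induced gene fil-2, was at 3.42 CPM in heat-shocked and 0.825 CPM in unheated worms (1.27). The median over all 24 was -0.09. Among 98 tested cuticle collagen genes 4 rose (4.08%) and 1 fell (1.02%), both under the shares of all genes (5.73% and 7.51%). With a replicate block 10 rose and 11 fell, with the 6 libraries alone 7 rose, and with a minimum of 5 CPM 2 rose. The gene bli-1 was at 5.33 ± 0.472 CPM in heat-shocked and 0.682 ± 0.0826 CPM in unheated worms (1.91; SD, n = 3 each).

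The X chromosome held a larger share of falls than the autosomes. On X 217 of 1554 tested genes were called lower (13.96%) and 70 higher (4.5%), against 674 lower (6.54%) and 604 higher (5.86%) of 10300 on the autosomes, and the medians were -0.11 on X and 0.003 on the autosomes. In the other strains' own libraries the share called lower was 30.8% on X and 11.9% on the autosomes in CA1199, 8.101% and 3.57% in JTL611, and 15.8% and 6.16% in JTL621. The called genes also differed in length: protein-coding genes called higher had a median exonic length of 2427 bp and those called lower 1641 bp, beside 1443 bp for all tested protein-coding genes. Their median unheated levels differed too, at 30.3 CPM for genes called higher, 11.3 CPM for those called lower and 16.9 CPM for all. Whether length or level alone makes a gene easier to call was not tested.

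Set against the other strains under the same heat shock on ethanol, the response of CA1200 differed significantly in few genes. Each strain's table was normalised separately, so the heat responses, each taken within its own table, were compared rather than the levels. Against CA1199, the other strain with untagged HSF-1, 0% of 11792 genes were called (limma, 0 in all 13 alternatives). The smallest adjusted p was 0.195. At an unadjusted p under 0.05 there were 1149 genes, 779 with the larger response in CA1200 and 370 with the smaller. The corresponding counts were 332 against JTL611 (192 larger, 140 smaller) and 417 against JTL621 (284 larger, 133 smaller). The lack of calls against CA1199 therefore does not show that the responses were alike. Against JTL611, which differs in its degron::GFP-tagged HSF-1, 9 of 11782 genes (0.0764%) were called, and all 9 responses were larger in CA1200. Against JTL621 it was 1 of 11751 (0.00851%), the chemoreceptor-family gene srr-6.

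R11A5.3 rose by 5.84 on the log2 scale in CA1200 and by 3.90 in JTL611, where it had 28.4, 14.1 and 16.14 CPM in heat-shocked worms, against 0.492, 0.257 and 0.212 CPM in unheated worms. The responses differed by 1.94 (95% interval 1.33 to 2.54; limma adjusted p = 0.003). ptr-18 rose by 4.16 in CA1200 and by 2.22 in JTL611, with 12.9, 6.49 and 9.54 CPM in heat-shocked JTL611 worms, against 0.774, 1.75 and 1.22 CPM in unheated ones (difference 1.94, 1.37 to 2.51). scp-1 rose by 2.73 in CA1200 and by 1.77 in JTL611, with 185, 155 and 184 CPM in heat-shocked JTL611 worms, against 48.96, 52.3 and 49.6 CPM in unheated ones (difference 0.96, 0.70 to 1.23). In both strains the heat-shocked and unheated values of these 3 genes did not overlap. hsp-110 rose by 1.55 in CA1200 and by 0.94 in JTL611, with 983, 1175 and 1219 CPM in heat-shocked JTL611 worms, against 618, 576 and 562 CPM in unheated ones (difference 0.61, 0.39 to 0.84). The other called differences were 0.86 for tent-5, 0.79 for nurf-1, 0.75 for aip-1, 0.74 for W03F9.1 and 0.73 for ttll-12. Of the 9 genes 6 belong to the list picked on this series, whose 9 members all had the larger response in CA1200 (median difference 0.79), which is no independent evidence.

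Among the inducible heat shock protein genes 0 of 9 differences were called (limma), 3 of 9 had the larger response in CA1200, and the median difference was -0.39. These counts take near-identical copies as separate genes. For hsp-70, with 357, 243 and 280.4 CPM in heat-shocked JTL611 worms, against 0.422, 0.103 and 0.106 CPM in unheated ones, the difference was 0.56 with a 95% interval of -0.35 to 1.47. For F44E5.4 it was -0.37, with an interval of -1.41 to 0.67, and for hsp-16.11 it was -0.73, with an interval of -1.51 to 0.06. Each of the 3 intervals includes 0, but those of hsp-70 and F44E5.4 also include 0.61, the called difference of hsp-110. A difference of that size in these 2 genes cannot be told from none. unc-23 (0.81, 0.47 to 1.15; adjusted p = 0.081) and dnj-13 (0.43, 0.23 to 0.64; adjusted p = 0.22) had larger responses in CA1200 that did not pass the correction.

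**Figure D5:**
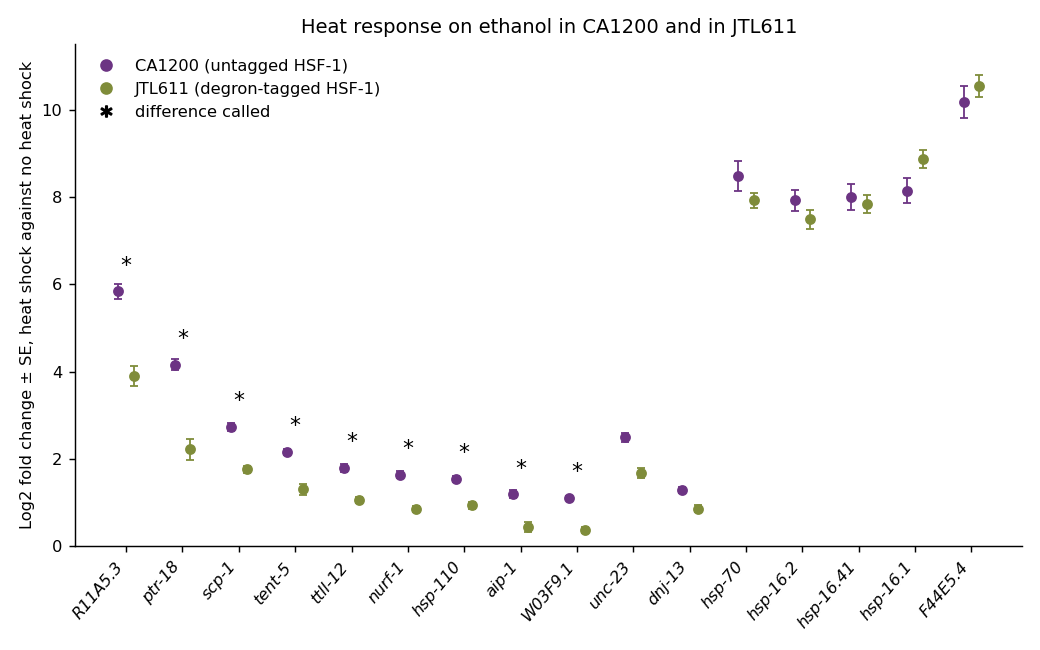
Log2 fold change after heat shock on ethanol, ± SE (3 heat-shocked and 3 unheated libraries per strain), of 16 genes in CA1200 (purple, left) and JTL611 (green, right); an asterisk marks the 9 genes whose difference between strains was called. The called genes lie higher in CA1200, by 0.61 to 1.94, whereas the inducible heat shock protein genes lie on either side of each other.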

How the data were processed

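STAR, featureCounts and edgeR, and the builds WBcel235 and ce11, are named without versions in the submitters' processing notes; the counting's strand setting is not given in the sources used here. The authors deposited 1 table per strain of normalised log2 values. The values hold a prior of 2 reads (an offset of 0.118 CPM in CA1200); once it was subtracted, 100% of them were whole read numbers to a tolerance of 0.05. Values were therefore converted to linear CPM with the authors' scaling factors kept.

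The test was run on genes averaging at least 1 CPM across a strain's 12 libraries, with limma 3.58.1 (R 4.3.3) on log2(CPM + 1), all 12 libraries sharing the variance estimate, at a Benjamini-Hochberg adjusted p of 0.05. Differences between strains were tested in 1 joint limma fit over the genes shared by both tables. Single sums were tested with scipy 1.17.1. The scripts were tested on simulated data. As the deposited unit is a log value, no count model was run; limma-voom on the recovered reads was an alternative. Other alternatives were pseudocounts, filters, scalings, the 6 libraries alone, each library left out, and a block for the replicate number.

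Same-numbered libraries deviated together (correlations 0.304, 0.127 and 0.285 over genes), but the labels do not say what a shared number means. The main test had no term for the replicate number, so its p-values leave out any such pairing. The block for the replicate number was run as an alternative only and gave 2106 calls in place of 1573. Gene positions come from the Ensembl annotation of WBcel235; 11 of 12450 IDs had no match. Members and lists were chosen with earlier results of these data known. Named genes were hsf-1, the inducible heat shock proteins, up to 3 called genes of smallest p per list, the largest changes without overlap, and the called differences between strains; adh-1, icl-1, gyg-1, tatn-1, gcn-2, efk-1, zip-10, atf-2 and several not-called genes were added after their values were seen, as were the chromosome, length and neighbour counts. No promoter or protein sequence was used here.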

Additional observations from a re-analysis of the deposited data

Results flagged for a closer look

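The heat responses of 10 genes differed between CA1200 and another strain by a limma test of the difference itself. Relative to JTL611, CA1200 had the larger response, on the log2 scale, in R11A5.3 (1.94), ptr-18 (1.94), scp-1 (0.96), tent-5 (0.86), nurf-1 (0.79), aip-1 (0.75), W03F9.1 (0.74), ttll-12 (0.73) and hsp-110 (0.61). Relative to JTL621 it had the smaller response in srr-6 (-1.82), which rose by 0.67 in CA1200, a call lost without heat-shocked replicate 2 (adjusted p = 0.0786) or unheated replicate 3 (0.0672), and by 2.49 in JTL621.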

How the results depend on the processing

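The 1573 calls became 1163 to 2106 in the alternatives that kept all libraries. A replicate block gave 2106 (910 higher, 1196 lower). Calls lower were 572 where a mean of 5 CPM was required, which tests fewer genes, and calls higher were 316 with read-total scaling. Leaving out single libraries gave 993 to 1265 calls, 415 to 591 higher and 567 to 711 lower; the fewest came without heat-shocked replicate 2 (993) or 3 (997). The 9 differences from JTL611 were 17 with a pseudocount of 5 CPM (14 larger, 3 smaller), 4 with read-total scaling, 12 with the block and 6 to 9 without single libraries of CA1200. The single difference from JTL621 was 0 at 5 CPM or a pseudocount of 0.25, 3 with a pseudocount of 5, 2 with quantile or read-total scaling, 1 with the block and 0 to 2 without single libraries. CA1199 gave 0 throughout. The cause of these shifts was not tested. Of 221 genes examined singly, 203 were called. Of these, 146 kept the call in every alternative that tested them, and 57 lost it in at least 1. Genes with a mean under 5 CPM were tested in only 15 of the 16 alternatives. Another 7 genes gained a call and none reversed. Among these the block also called daf-16 (adjusted p = 0.0114), skn-1 (0.00997) and myo-3 (0.00045), beside the hsf-1, hsp-6 and unc-54 values given above, and changed no other of their calls. Depth limits genes near 0.2 CPM in unheated libraries.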

Other observations

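Other families were singled out after their values were seen, beside 5.73% higher and 7.51% lower among all genes. Of 14 tested patched-related (ptr) genes 8 fell and 1, ptr-18, rose, with a median of -0.64. Of 8 genes named nspg 7 fell, of 14 astacin-like metalloprotease (nas) genes 6 fell, and of 25 carboxylesterase (cest) genes 9 fell and 1 rose. Of 11 Integrator complex subunits (ints), which process small nuclear RNAs, 5 rose and none fell, with a median of 0.13. Of 4 tested tubulin ligase-like (ttll) genes 1 rose and 1 fell.

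Single genes outside these groups fell steeply. T11G6.3 was at 3.12 ± 0.472 CPM in heat-shocked and 16.7 ± 1.07 CPM in unheated worms (log2 fold change -2.11), and F02D8.4 at 11.3 ± 0.249 CPM in heat-shocked and 42.3 ± 2.87 CPM in unheated worms (-1.82). rhr-1, an Rh-related ammonium transporter gene, was at 87.9 ± 4.70 CPM in heat-shocked and 204 ± 15.3 CPM in unheated worms (-1.203), and glt-1, a glutamate transporter gene, at 31.1 ± 2.32 CPM in heat-shocked and 72.2 ± 5.04 CPM in unheated worms (-1.19; SD, n = 3 each throughout).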
